A study of Mus musculus with 9 samples.

Results

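The aminoacyl-tRNA synthetases are the enzymes that join each amino acid to its transfer RNA (tRNA), the step that supplies protein synthesis with its building blocks. Their 36 genes in this data set were picked by symbol, 20 for cytosolic and 16 for mitochondrial enzymes, out of 16937 genes listed in any of the 3 deposited tables, and each of the 36 was listed in every table. Gars and Kars were counted with the cytosolic enzymes although each makes both forms. Messenger RNA of mouse brown adipose tissue (BAT) was measured by RNA sequencing in 9 libraries, 3 in each group. WT RT mice were wild type and stayed at 23 °C, WT Cold mice were wild type and spent 8 h at 4 °C, and GCN2 KO Cold mice lacked the kinase GCN2 (gene Eif2ak4) in the whole body and had the same cold exposure. All were adult mice on a C57Bl/6J background, were housed singly for 5 days before the exposure and were killed at the same time of day. The comparisons ask how BAT transcripts change with acute cold and with loss of GCN2 during cold. No GCN2 KO library at room temperature was analysed here, so a difference between the cold responses of the genotypes could not be tested.

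Cytosolic and mitochondrial synthetases are mostly encoded by separate nuclear genes, and the mitochondrial enzymes serve only the few proteins made inside the organelle, which include subunits of the respiratory chain. GCN2 is switched on by uncharged tRNA, the substrate that accumulates when a synthetase lacks its amino acid, and it phosphorylates the translation factor eIF2. This favours synthesis of the transcription factor ATF4, which is known to raise transcription of many cytosolic synthetase genes together with amino acid transporters and biosynthetic enzymes. Brown adipose tissue burns fuel in abundant mitochondria to make heat when a mouse is cold.

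Libraries held between 27055469 and 30766437 reads on listed genes over the 3 tables, and no member had fewer than 106 reads in any library (Pars2). The 3 libraries labelled GCN2 KO Cold (KO-labelled libraries from here on) did not have less Eif2ak4 than the others, with a level of 12.6, 13.6 and 12.7, as compared with 6.25, 8.20 and 8.44 in WT Cold and 10.1, 11.5 and 12.7 in WT RT. Levels are reads as a share of the library total (CPM) rescaled so that the median gene was equal between libraries. Counts were summed over all exons of a gene, so a deletion of some exons could not be seen and the genotype could not be checked, and every direction given below for these libraries rests on their label. The title of 1 of the 3 samples names both genotypes, and that sample was placed in the group by its genotype label. Which of the 3 libraries it is cannot be told from the column codes. All 10 brown adipocyte markers were detected, and Ucp1 was between 3276 and 10436 in every library. Library C of each cold group stood apart in sex-linked transcripts, with Ddx3y at 7.10 and 11.3 as compared with at least 82.0 elsewhere, all 3 WT RT libraries included. The labels give no sex for a sample, and the study describes its groups as holding mice of both sexes. The summed level of 10 skeletal muscle markers was 2401 to 2732 in WT RT, 2323 to 3732 in WT Cold and 316 to 1484 in the KO-labelled libraries, and that of 7 macrophage markers was 369 to 521, 196 to 300 and 160 to 240 in the same order. The sum of 3 red blood cell genes was 194 to 261 in WT RT and 467 to 1836 over both cold groups. The sum of 5 endothelial markers was 454 to 538 in WT RT, 593 to 692 in WT Cold and 501 to 618 in the KO-labelled libraries, and 2 of the 5, Pecam1 (log2 fold change 0.66) and Kdr (0.47), were called higher in WT Cold vs WT RT, changes of the size of those of the synthetases. The sum of the brown adipocyte markers was 8994 to 10649, 15624 to 16766 and 19748 to 20042 in the same order. The part of these cells in the results was not tested. The column codes of the WT RT libraries begin with other letters than those of the cold libraries. What the letters stand for is not given in the sources used here, and a difference they may mark cannot be told apart from cold.

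At room temperature the synthetase transcripts differed widely in abundance. On a scale of level per kilobase of exon, Gars, the glycyl enzyme, was highest at 47.3 ± 3.66 (SD, n = 3). It was followed by Lars2, the mitochondrial leucyl enzyme, at 29.7 ± 3.64 (SD, n = 3), Nars, the asparaginyl enzyme, at 24.3 ± 1.54 (SD, n = 3), and Sars, the seryl enzyme, at 20.3 ± 1.63 (SD, n = 3). The ranges of these 4 genes did not overlap. Below them neighbours mostly overlapped, from Farsb, the beta subunit of the phenylalanyl enzyme, at 18.1 ± 2.25 (SD, n = 3) down to Cars, the cysteinyl enzyme, at 3.58 ± 0.58 (SD, n = 3). The lowest of all was Mars2, the mitochondrial methionyl enzyme, at 0.785 ± 0.09 (SD, n = 3). The median over the 20 cytosolic genes was 10.1 and over the 16 mitochondrial genes 5.12 per kilobase. The lengths are of all annotated exons of a gene, so genes with rarely used long exons come out low on this scale.

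**Figure D1:**
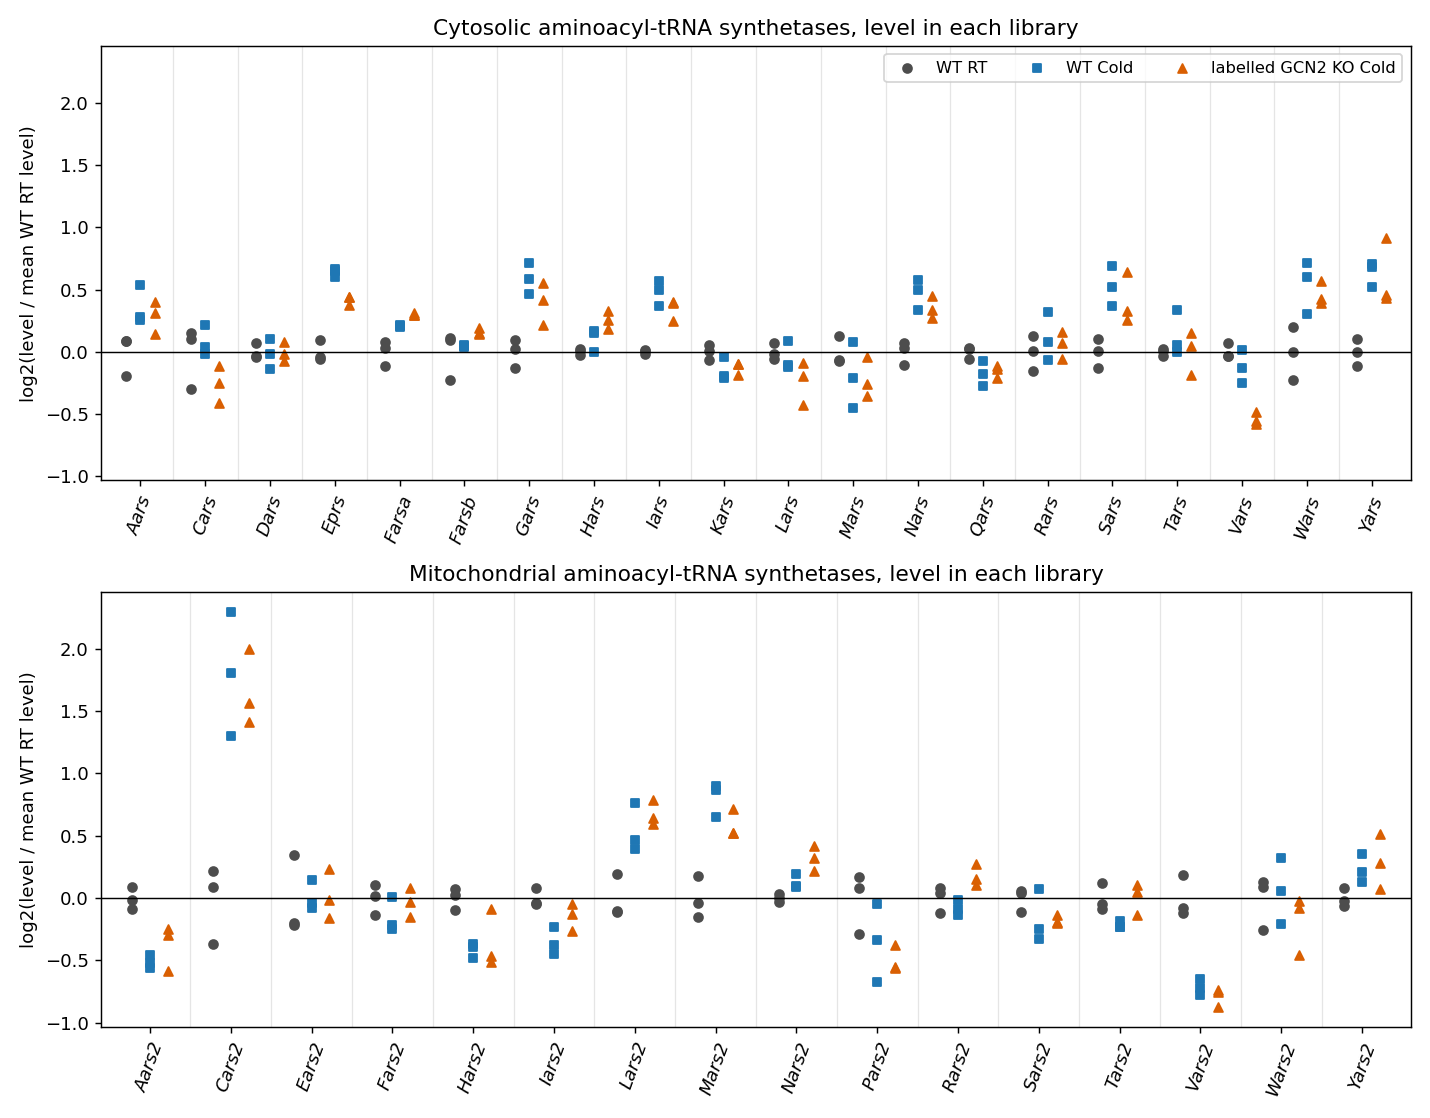
Level of each synthetase gene in each library, as log2 of the ratio to the mean WT RT level, with cytosolic genes in the upper panel and mitochondrial genes in the lower. Each point is 1 library, with circles for WT RT, squares for WT Cold and triangles for the KO-labelled libraries. Cars2 lies farthest above 0 in both cold groups and Vars2 lies below all WT RT points in both.

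Acute cold was accompanied by higher transcripts for 8 of 20 cytosolic synthetases in WT mice, by modest amounts, and by changes in both directions among the mitochondrial ones. The cytosolic genes that rose were Aars, Eprs, Gars, Iars, Nars, Sars, Wars and Yars, with log2 fold changes from 0.36 to 0.64, and no cytosolic gene was called lower. Among mitochondrial genes, Cars2, Mars2 and Lars2 rose and Vars2, Aars2, Hars2 and Iars2 fell. In all, 11 of 36 genes (30.6%) were called higher and 4 (11.1%) lower at an adjusted p under 0.05 from limma with Benjamini-Hochberg adjustment over all 16679 genes tested, as compared with 13.6% of all genes called higher and 14.1% called lower (27.7% in all). Only Cars2 also had an absolute log2 fold change over 1, which 2.99% of all genes did in the higher and 5.15% in the lower direction. The 3 WT Cold libraries lay above the 3 WT RT libraries for 14 of the 36 genes and below them for 6, and over all genes such groups did not overlap for 22.8% in each direction. The median log2 fold change was 0.12 over cytosolic and -0.11 over mitochondrial genes, with a median of 0.00 over all genes. On CPM of the whole library they were 0.03 and -0.19, with a median of -0.06 over all genes. Because this is bulk tissue, more RNA per cell and more cells of a type cannot be told apart.

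The largest change was in Cars2, which encodes the mitochondrial cysteinyl-tRNA synthetase (chr8:11513977-11550783 in GRCm38). Its level was 31.7, 43.4 and 47.6 in WT RT, 143, 201 and 101 in WT Cold, and 121, 109 and 164 in the KO-labelled libraries. Every cold library was above every WT RT library, and both cold groups overlapped. In WT Cold vs WT RT its normalized counts were 3.52-fold higher, with a log2 fold change of 1.82 (SE 0.25, adjusted p = 0.00216 from limma). The 95% interval ran from 1.24 to 2.39. Its exons share 422 bases, or 5.83% of its exon length, with Naxd on the other strand, whose own log2 fold change was -0.02, and the kit is not known here to keep strand. Cars, the cytosolic enzyme for the same amino acid, had 19.2, 25.3 and 26.2 in WT RT, 24.2, 23.4 and 27.5 in WT Cold and 17.8, 19.8 and 21.8 in the KO-labelled libraries, and was not called in any comparison.

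Eprs had the smallest adjusted p of the cytosolic genes. It encodes the bifunctional glutamyl-prolyl enzyme, a member of the multi-synthetase complex (chr1:185363044-185428360). Its level was 92.9, 103 and 94.2 in WT RT, 153, 146 and 151 in WT Cold, and 125, 131 and 132 in the KO-labelled libraries. None of the 3 groups overlapped, with WT Cold on top. The log2 fold change in WT Cold vs WT RT was 0.64 (SE 0.07, adjusted p = 0.000944 from limma).

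Yars, the tyrosyl enzyme, had 34.1, 37.0 and 39.7 in WT RT, 59.4, 53.0 and 60.2 in WT Cold and 49.8, 50.7 and 69.6 in the KO-labelled libraries. Gars had 135, 150 and 158 in WT RT, 221, 203 and 242 in WT Cold and 171, 197 and 217 in the KO-labelled libraries. In both genes every cold library exceeded every WT RT library. Their log2 fold changes in WT Cold vs WT RT were 0.63 (SE 0.09, adjusted p = 0.00264 from limma) for Yars and 0.59 (SE 0.09, adjusted p = 0.00359 from limma) for Gars.

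Iars, the isoleucyl enzyme of the complex, had 34.8, 34.4 and 33.9 in WT RT, 48.6, 44.3 and 50.9 in WT Cold and 40.9, 45.2 and 45.0 in the KO-labelled libraries. Nars had 98.4, 108 and 111 in WT RT, 149, 134 and 158 in WT Cold and 128, 134 and 145 in the KO-labelled libraries. Sars had 95.5, 105 and 112 in WT RT, 149, 135 and 168 in WT Cold and 125, 131 and 163 in the KO-labelled libraries. All 3 genes were higher in each cold library than in any WT RT library. In WT Cold vs WT RT the log2 fold change was 0.47 for Iars (SE 0.08, adjusted p = 0.00538 from limma), 0.47 for Nars (SE 0.09, adjusted p = 0.00702 from limma) and 0.53 for Sars (SE 0.10, adjusted p = 0.00811 from limma).

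Wars, the tryptophanyl enzyme, and Aars, the alanyl enzyme, were the least secure of the 8. Wars ranged from 47.2 to 63.1 in WT RT and from 68.1 to 90.1 in WT Cold, with a log2 fold change of 0.54 (SE 0.14, adjusted p = 0.0222 from limma). It kept its call in 2 of 6 fits that each left out a library. Wars is also an interferon-inducible gene, and the summed level of 14 interferon response genes was 471 to 998 in WT RT as compared with 129 to 187 in WT Cold and 124 to 177 in the KO-labelled libraries. The part of interferon signalling in the values of Wars was not tested. Aars ranged from 75.1 to 91.3 in WT RT and from 102 to 124 in WT Cold, with a log2 fold change of 0.36 (SE 0.11, adjusted p = 0.0461 from limma). It kept its call in 0 of the 6 such fits and had an adjusted p of 0.0531 from edgeR and 0.0287 from DESeq2. Of the exon bases of Aars, 14.3% overlap Exosc6 on the same strand, so strand could not tell apart the reads of the overlap.

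The 12 cytosolic genes without a call in WT Cold had log2 fold changes from -0.19 to 0.21. They included both subunits of the phenylalanyl enzyme, Farsa and Farsb, the histidyl (Hars), lysyl (Kars), leucyl (Lars), methionyl (Mars), glutaminyl (Qars), arginyl (Rars), aspartyl (Dars), threonyl (Tars) and valyl (Vars) enzymes, and Cars. Of the 8 enzymes of the multi-synthetase complex, which holds synthetases together on scaffold proteins, only Eprs and Iars were called higher (25.0%), and the median of the 8 was -0.03. Of the 12 cytosolic enzymes outside it, 6 were called higher (50%), with a median of 0.28, as compared with 13.6% of all genes. The difference between members inside and outside the complex was not tested.

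A list of 12 cytosolic synthetases linked to ATF4 as background knowledge, and written with earlier results of these data known, held all 8 of the cytosolic genes that rose, and its median log2 fold change was 0.47. That the list holds every called cytosolic gene, and that the other 8 have no call, follows from how it was written and is no evidence for the division. The 4 listed genes without a call were Cars, Lars, Mars and Tars. Atf4 itself had 92.6, 145 and 107 in WT RT, 256, 240 and 287 in WT Cold, and 204, 187 and 293 in the KO-labelled libraries, and every cold library was above every WT RT library. Its log2 fold change in WT Cold vs WT RT was 1.20 (SE 0.16, adjusted p = 0.00176 from limma). Of 19 ATF4-linked genes that are not synthetases, Atf4 included, 10 were called higher (52.6%) and 2 lower (10.5%), with a median of 0.67, as compared with 13.6% and 14.1% of all genes. The largest rises were in Ddit4, an inhibitor of mTORC1 signalling (1.69), Slc3a2, the heavy chain of amino acid transporters (1.60), and Sesn2, a leucine sensor (1.26). The 2 called lower were Phgdh (-0.96) and Psat1 (-0.56). This list too was written with earlier results of these data known, so its shares are a description only.

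The promoters of the synthetase genes were searched for the letters TGATGNAA, the C/EBP-ATF response element to which ATF4 binds with its C/EBP partners, on both strands of the RefSeq window from 250 bases before to 50 bases after the start site. Such sequences were at hand for 26 of the 36 genes. The element was found in 5 of them, Aars, Gars, Iars, Tars and Yars, or 41.7% of 12 cytosolic and 0 of 14 mitochondrial promoters, as compared with 4.51% of 27025 promoters of all genes. All 5 are on the ATF4-linked list, and 4 of the 5, all but Tars, rose in WT Cold. Eprs and Sars, the other 2 genes of that list with a sequence, also rose in WT Cold and had no match, Eprs having the largest log2 fold change of the cytosolic genes. The members without a sequence were Cars, Hars, Lars, Mars, Nars, Rars, Vars, Wars, Hars2 and Pars2. A match of each gene is given here with 10 bases on each side because these members moved together or share the element, with the element in capitals and on the strand of its gene and from 5′ to 3′ in GRCm38.p6.
Yars, chr4:129189896-129189923, plus strand: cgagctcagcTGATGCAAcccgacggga
Gars, chr6:55037961-55037988, plus strand: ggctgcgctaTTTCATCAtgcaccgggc
Aars, chr8:111033841-111033868, plus strand: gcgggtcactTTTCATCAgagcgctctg
Iars, chr13:49682127-49682154, plus strand: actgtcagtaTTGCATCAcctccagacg
Tars, chr15:11399656-11399683, minus strand: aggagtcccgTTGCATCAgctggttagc
In Yars the element reads in the direction of the gene and begins 3 bases after the start site. In the other 4 genes it lies on the opposite strand, 30 bases before the start site in Gars, 15 before it in Tars, 9 after it in Aars, and 7 after it in Iars, counted to the first base of the match given. The cyclic AMP response element, TGACGTCA, was in 0 of the 26 promoters and in 2.03% of all. The E-box, CACGTG, was in Aars, Farsb, Iars, Tars and Ears2 and in 8.09% of all promoters. A match is a description of the letters only, and Cars2, whose change was the largest, had no TGATGNAA in its window.

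**Figure D2:**
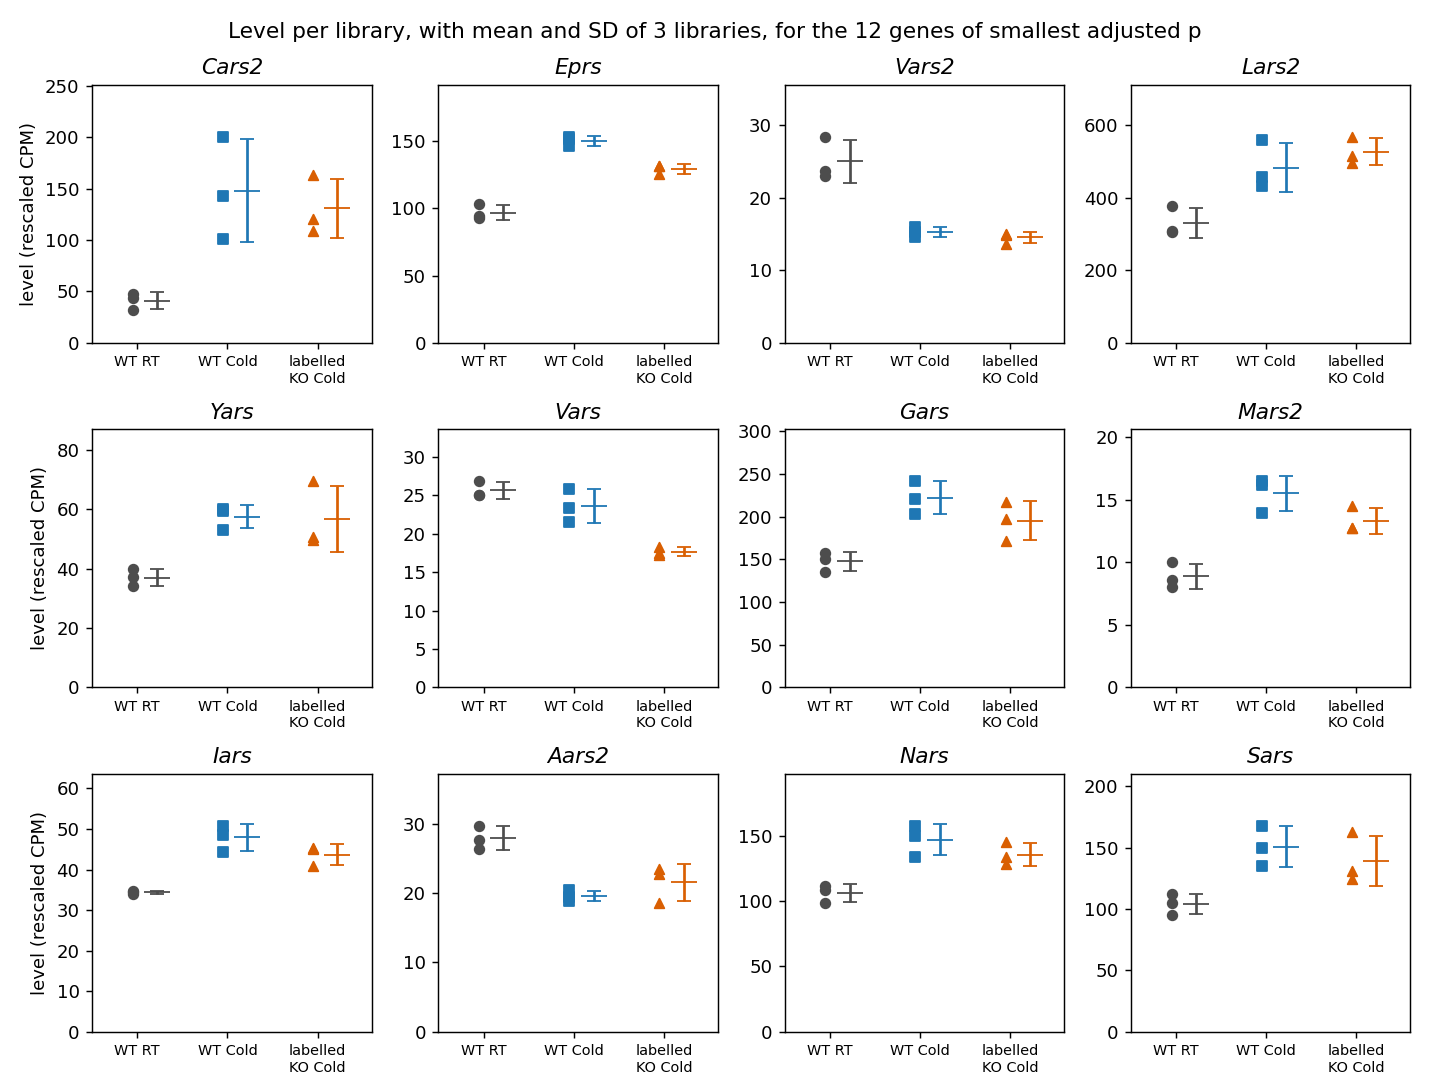
Level in each library (rescaled CPM, linear axis from 0) of the 12 synthetase genes with the smallest adjusted p over the 3 comparisons. Points are libraries, and the bar beside them is the mean with the SD of 3 libraries. Vars is the only one of the 12 whose WT Cold and WT RT points overlap.

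Among mitochondrial genes, Mars2, the methionyl enzyme, had 8.00, 8.61 and 10 in WT RT, 16.2, 16.5 and 13.9 in WT Cold and 12.7, 14.5 and 12.7 in the KO-labelled libraries. Lars2 had 308, 305 and 376 in WT RT, 432, 456 and 560 in WT Cold and 515, 568 and 497 in the KO-labelled libraries. In both genes all cold libraries lay above WT RT. The log2 fold change in WT Cold vs WT RT was 0.81 for Mars2 (SE 0.13, adjusted p = 0.00416 from limma) and 0.54 for Lars2 (SE 0.12, adjusted p = 0.0157 from limma). Lars2 kept its call in 4 of 6 fits that each left out a library.

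The clearest fall was in Vars2, the mitochondrial valyl enzyme, with 23.7, 23.0 and 28.4 in WT RT, 14.6, 15.9 and 15.2 in WT Cold and 14.8, 15.0 and 13.6 in the KO-labelled libraries. Aars2, the mitochondrial alanyl enzyme, had 26.3, 27.6 and 29.7 in WT RT, 18.8, 19.4 and 20.4 in WT Cold and 18.5, 23.5 and 22.7 in the KO-labelled libraries. Each cold library was lower than each WT RT library in both genes. The log2 fold change in WT Cold vs WT RT was -0.71 for Vars2 (SE 0.11, adjusted p = 0.00352 from limma) and -0.51 for Aars2 (SE 0.09, adjusted p = 0.00554 from limma). Vars2 shares 8.52% of its exon bases with Gm20483 on the other strand.

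Hars2, the mitochondrial histidyl enzyme, fell by 0.41 on the log2 scale (adjusted p = 0.0108 from limma), from a WT RT level of 36.1 ± 2.19 to 27.1 ± 1.06 (SD, n = 3). It shares 195 exon bases with Hars on the other strand, and Hars was not called in this comparison. Iars2, the mitochondrial isoleucyl enzyme, fell by 0.35 (adjusted p = 0.0164 from limma), from 149 ± 7.23 to 117 ± 9.26 (SD, n = 3). Its call was kept in 3 of 6 fits that each left out a library. Of its exon bases, 22.9% overlap Rab3gap2 on the other strand, whose log2 fold change was -0.33, and reads of the overlap cannot be told apart without strand. The mitochondrial genes without a call were Ears2, Fars2, Nars2, Pars2, Rars2, Sars2, Tars2, Wars2 and Yars2, for the glutamyl, phenylalanyl, asparaginyl, prolyl, arginyl, seryl, threonyl, tryptophanyl and tyrosyl enzymes, with values from -0.34 in Pars2 to 0.23 in Yars2.

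Since most amino acids have both a cytosolic and a mitochondrial enzyme, the ratio of the 2 genes was taken within each library, where no scaling enters, for 13 pairs. With 3 libraries against 3 the exact permutation test cannot give a p below 0.1 (two-sided), so these ratios are given as values. The log2 ratio of Iars to Iars2 was -2.06, -2.07 and -2.22 in WT RT and -1.24, -1.30 and -1.32 in WT Cold. That of Aars to Aars2 was 1.51, 1.72 and 1.62 in WT RT and 2.47, 2.39 and 2.61 in WT Cold. Both moved toward the cytosolic gene by 0.83 and 0.87, with no overlap of the groups. The other way moved Cars to Cars2 by -1.73, Mars to Mars2 by -1.001 and Lars to Lars2 by -0.59. The median change over the 13 pairs was 0.40. The ratio of Vars to Vars2 changed by 0.59 although Vars itself was not called, and that of Wars to Wars2 overlapped between the groups. In GCN2 KO Cold vs WT Cold, which uses the same 3 WT Cold libraries, the ratio lay lower in each KO-labelled library than in any WT Cold library for 6 of the 13 pairs and higher for 0, with a median change of -0.21. The 6 were Iars/Iars2 (-0.34), Vars/Vars2 (-0.34), Lars/Lars2 (-0.32), Nars/Nars2 (-0.31), Rars/Rars2 (-0.31) and Aars/Aars2 (-0.21), and the other 7 overlapped. The corresponding share over other pairs of genes was not computed in any comparison, so the counts of pairs have no reference. In GCN2 KO Cold vs WT RT the ratio lay higher for 7 pairs and lower for 4, with a median change of 0.25.

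**Figure D3:**
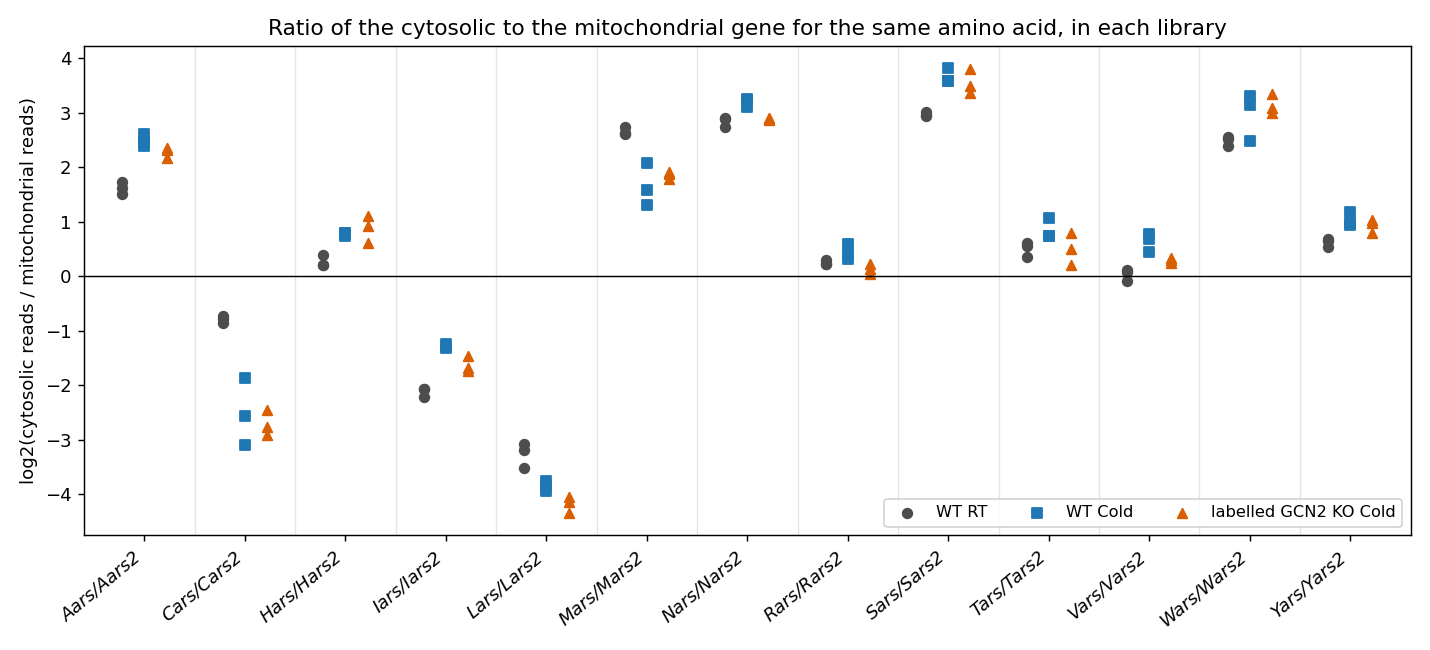
log2 ratio of reads of the cytosolic to the mitochondrial gene for the same amino acid in each library, for 13 pairs. Symbols are as in the plot of all members. In WT Cold the ratio was above that of WT RT for 9 pairs and below it for 3 (Cars/Cars2, Lars/Lars2 and Mars/Mars2). Such a share was not computed over other pairs of genes.

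The summed level of the 20 cytosolic genes was 1203 ± 67.8 in WT RT, 1496 ± 95.1 in WT Cold and 1400 ± 87.1 in the KO-labelled libraries (SD, n = 3). That of the 16 mitochondrial genes was 809 ± 71.5, 1009 ± 60.0 and 1070 ± 43.2 (SD, n = 3) in the same order. In both classes the lowest cold library lay above the highest WT RT library. The sums lean on the most abundant genes, and Lars2 and Cars2 together gained more than the mitochondrial class as a whole.

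The comparison of GCN2 KO Cold with WT Cold asks whether loss of GCN2 changes these transcripts during cold. With limma, 0 of 36 genes were called in either direction, as compared with 0.178% of 16312 genes called higher and 0.227% called lower. DESeq2 and edgeR on recovered reads also called 0 of 36, as compared with 3.29% and 0.27% of all genes. At an unadjusted p under 0.05 there were 5 genes, Cars, Eprs, Vars, Rars2 and Tars2, and 15.3% of all genes passed that mark. Groups did not overlap for 6 genes that were higher and 3 that were lower in the KO-labelled libraries, as compared with 11.3% and 10.7% of all genes. The median log2 fold change was -0.07 over cytosolic and 0.06 over mitochondrial genes, and on CPM of the whole library, where the median of all genes was -0.09, it was -0.19 and -0.06, so the sign over mitochondrial genes depends on the scale. The 95% intervals of all 36 genes lay within 1 on the log2 scale, and those of 31 within 0.5, which bounds the differences these libraries allow.

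The largest differences were in Vars, Cars and Rars2. Vars had 25.0, 25.0 and 26.9 in WT RT, 23.4, 21.5 and 25.9 in WT Cold and 17.5, 18.3 and 17.2 in the KO-labelled libraries, which lay below all the others. Its log2 fold change in GCN2 KO Cold vs WT Cold was -0.41 (95% interval -0.65 to -0.18, adjusted p = 0.142 from limma). Cars was at -0.34 (adjusted p = 0.23 from limma), with each KO-labelled library below each WT Cold library. Rars2, the mitochondrial arginyl enzyme, had 27.4, 31.5 and 30.6 in WT RT, 27.2, 28.1 and 29.6 in WT Cold and 33.1, 36.1 and 32.2 in the KO-labelled libraries, a log2 fold change of 0.26 (adjusted p = 0.229 from limma). Eprs was at -0.22 (95% interval -0.37 to -0.07, adjusted p = 0.187 from limma). A fit of all 3 groups on CPM, where the median of all genes was -0.09, called Vars and Eprs lower in the KO-labelled libraries. The share of all genes called in that fit is not given here.

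The 12 ATF4-linked synthetases had log2 fold changes from -0.34 to -0.02 in GCN2 KO Cold vs WT Cold, with a median of -0.12, and 0 were called. The other 8 cytosolic genes had a median of 0.02, and 50.5% of all genes were below 0. The list was written with results known and holds the genes called high in the same WT Cold libraries, which favours values below 0 here, so their shared direction is a description only. The interval of Cars2 was wide, from -0.74 to 0.46 around -0.14. Of the 19 other ATF4-linked genes 0 were called by limma and by edgeR and 1 by DESeq2, Mthfd2, an enzyme of mitochondrial folate metabolism (log2 fold change -0.88, adjusted p = 0.0447 from DESeq2 and 0.199 from limma). At an unadjusted p under 0.05 there were 3, or 15.8%, near the 15.3% of all genes, and the largest values were those of Chac1 (-1.07, SE 0.70), a glutathione-degrading enzyme, and Slc7a11 (-0.91, SE 0.48), a cystine transporter. Atf4 was at -0.22 (95% interval -0.61 to 0.18). In this comparison all 10 skeletal muscle markers were lower in each KO-labelled library than in any WT Cold library, as compared with 10.7% of all genes. Their median log2 fold change was -1.86, but 0 of the 10 were called by limma, DESeq2 or edgeR. The part of tissue composition in the values of Vars, Cars and Eprs was not tested.

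**Figure D4:**
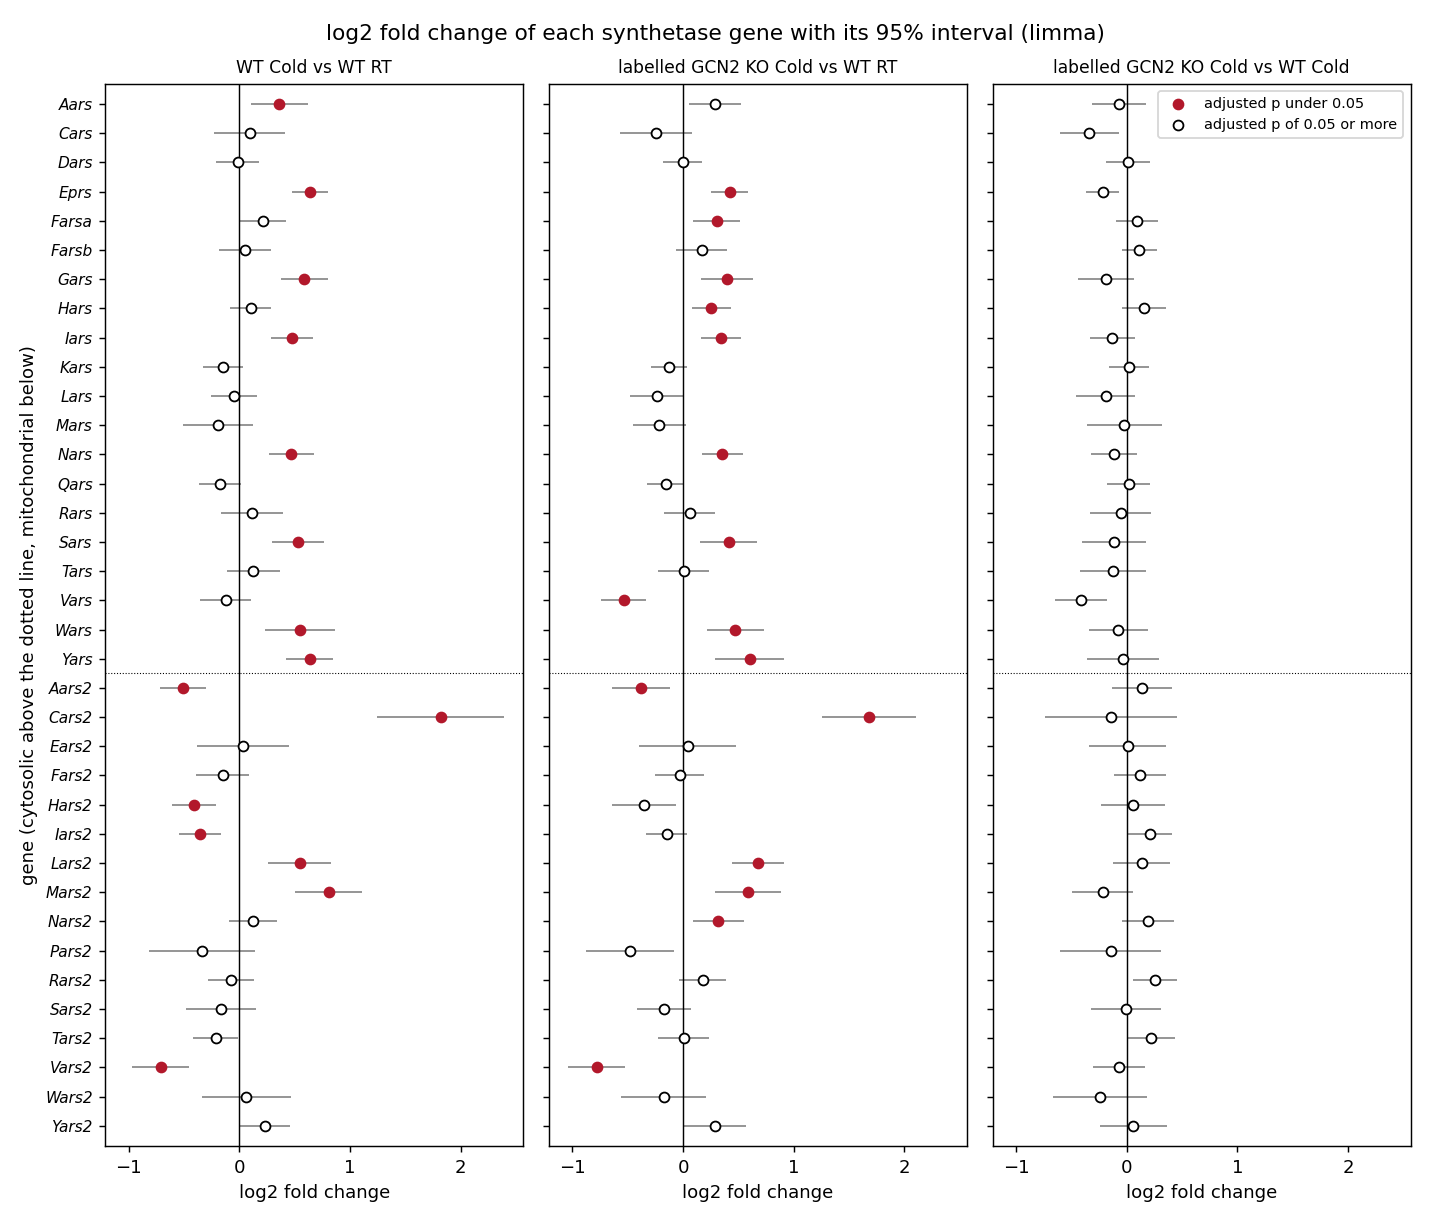
log2 fold change of each synthetase gene with its 95% interval in the 3 comparisons, cytosolic genes above the dotted line and mitochondrial genes below. Filled points had an adjusted p under 0.05 from limma. There are 15 filled points in WT Cold vs WT RT, 16 in GCN2 KO Cold vs WT RT and 0 in GCN2 KO Cold vs WT Cold.

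GCN2 KO Cold vs WT RT sets cold and genotype together against the same 3 WT RT libraries that served WT Cold, so the 2 comparisons are not independent. In it 13 genes (36.1%) were called higher and 3 (8.33%) lower by limma, as compared with 16.4% and 17.8% of 16560 genes. Only Cars2 also had an absolute log2 fold change over 1, as did 3.01% of all genes in the higher and 7.58% in the lower direction. The median log2 fold change was 0.21 over cytosolic and -0.01 over mitochondrial genes. This split depends on the scale. On CPM of the whole library the median of all genes was -0.15 and the counts were 4 higher, Yars, Cars2, Lars2 and Mars2, and 13 lower, while the corresponding counts in WT Cold vs WT RT were 10 and 6 with a median of all genes of -0.06. The shares of all genes called on that scale are not given here, so these counts are not read as a result about the synthetases. Relative to the median of all genes on CPM, all 16 called genes kept their sign.

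Side by side, the log2 fold changes in WT Cold vs WT RT and in GCN2 KO Cold vs WT RT were 1.82 and 1.68 for Cars2, 0.64 and 0.42 for Eprs, 0.63 and 0.60 for Yars, and 0.59 and 0.40 for Gars. They were 0.54 and 0.68 for Lars2, 0.81 and 0.59 for Mars2, and -0.71 and -0.78 for Vars2. The cytosolic genes called higher in the KO-labelled libraries were Eprs, Farsa, Gars, Hars, Iars, Nars, Sars, Wars and Yars. The mitochondrial ones were Cars2, Lars2, Mars2 and Nars2, and those called lower were Vars, Aars2 and Vars2. Aars was at 0.29 (adjusted p = 0.0612 from limma). Vars fell by 0.54 on the log2 scale (SE 0.09, adjusted p = 0.00276 from limma), as compared with a value of -0.13 in WT Cold that was not called. Of the fits that left out a library, Farsa, Hars and Nars2 each kept the call in 1 of 6, Aars2 in 2, Sars in 4 and Gars in 5.

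Of the 19 ATF4-linked genes that are not synthetases, 9 were called higher (47.4%) and 3 lower (15.8%) in GCN2 KO Cold vs WT RT, with a median of 0.46, as compared with 16.4% and 17.8% of all genes. These shares too are a description only, since the list was written with earlier results known. Slc3a2 was at 1.34, Ddit4 at 1.26 and Phgdh, the first enzyme of serine synthesis, at -1.72, the last lower as it was in WT Cold (-0.96).

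Of 21 partner genes, which make scaffold proteins, tRNA transport and modification factors and related enzymes, 1 was called higher (4.76%) and 3 lower (14.3%) in WT Cold vs WT RT, with a median of -0.06, as compared with 13.6% and 14.1% of all genes. Eef1e1, a scaffold of the multi-synthetase complex, rose by 0.75 (adjusted p = 0.00489 from limma). Dtd1, which removes D-amino acids from tRNA, fell by 0.73 (adjusted p = 0.00814 from limma). In GCN2 KO Cold vs WT RT, 3 partners were called higher and 3 lower (14.3% each), as compared with 16.4% and 17.8% of all genes, with Eef1e1 at 0.88, Dtd1 at -0.65 and Trmu, a modifier of mitochondrial tRNA, at 0.64. In GCN2 KO Cold vs WT Cold limma and edgeR called 0 of the 21 and DESeq2 called 1, Qrsl1, which helps charge mitochondrial glutamine tRNA (log2 fold change 0.50, adjusted p = 0.0262 from DESeq2 and 0.111 from limma). At an unadjusted p under 0.05 there were 5, or 23.8%, as compared with 15.3% of all genes.

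Leaving out library C of each cold group, which stood apart in sex-linked transcripts, gave 10 synthetase genes higher and 5 lower in WT Cold vs WT RT, 0 and 0 in GCN2 KO Cold vs WT Cold, and 11 and 3 in GCN2 KO Cold vs WT RT.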

How the data were processed

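RNA of brown adipose tissue was sequenced in 9 libraries, 3 each of WT RT, WT Cold and GCN2 KO Cold. Poly(A)-selected libraries were made with a kit whose strand setting in counting is not given in the sources used here. Per the study's methods and the submitters' processing notes, the authors trimmed reads with Trimmomatic 0.36, aligned them with STAR 2.5.2b (build GRCm39) and counted unique exon reads with featureCounts of Subread 1.5.2. Each of the 3 deposited tables covers 1 comparison and gives a signal for every gene in 6 libraries, namely its read count over a size factor of that library in that table. Columns with the authors' own log2 fold changes and p-values, also deposited, were not used. Columns carry library codes, which were tied to groups by the tables in which they occur, and libraries were named A to C by code order. Columns of other samples numbered 0. The labels call the samples biological replicates.

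All values were whole multiples of a step per library, and reads were recovered for 100% of values (tolerance 0.001 reads). Each table was tested with limma 3.58.1 (R 4.3.3) on log2(value + 1) with a mean-variance trend, and p-values were adjusted by Benjamini-Hochberg over all its genes. This scale understates changes of low genes. DESeq2 1.42.0 and edgeR 4.0.16 were run on recovered reads, and the scripts were tested on simulated data. Levels are CPM of recovered reads, rescaled by median of ratios across the 9 libraries, a choice made after the data were seen because the median gene shifted between groups on plain CPM. Positions and exon lengths are from GENCODE M21 on GRCm38, matched by Ensembl identifier, and promoters from RefSeq (GRCm38.p6).

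The members and gene lists were chosen with earlier results of these data known. Every member was named. Values of all libraries were given for the 12 members of smallest adjusted p and the 3 of largest change in each comparison. Up to 3 genes of the other lists were named per comparison, and further ones where they went the other way. Alternatives covered tool, pseudocount, a minimum mean of 10, scaling, groups in the fit, the trend, and each library left out. A gene of the partner list and a promoter match are not reported here.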

Additional observations from a re-analysis of the deposited data

How the results depend on the processing

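No paired analysis was possible because the columns carry no replicate numbers. No called synthetase gene changed sign under any alternative. With an absolute log2 fold change over 1 also required, 1 gene was higher and 0 were lower in WT Cold vs WT RT and likewise 1 and 0 in GCN2 KO Cold vs WT RT. In the fit of all 3 groups on CPM, 7 genes were lower in WT Cold vs WT RT, 2 lower in GCN2 KO Cold vs WT Cold, and 5 higher and 13 lower in GCN2 KO Cold vs WT RT. On CPM with separate fits the last were 4 and 13, and without the trend 8 were higher. The shares of all genes called under these settings are not given here. On CPM with separate and with joint fits, which moves the median of all genes, the cytosolic median was 0.034 and 0.0338 in WT Cold vs WT RT, -0.188 in both for GCN2 KO Cold vs WT Cold, and 0.00758 and 0.00736 in GCN2 KO Cold vs WT RT. The mitochondrial median was -0.194 in both for WT Cold vs WT RT, -0.0571 in both for GCN2 KO Cold vs WT Cold and -0.211 and -0.212 in GCN2 KO Cold vs WT RT. With each library left out in turn, WT Cold vs WT RT gave 8 to 10 genes higher and 3 to 5 lower, with medians of 0.10 to 0.18 (cytosolic) and -0.16 to -0.07 (mitochondrial). GCN2 KO Cold vs WT Cold gave 0 calls, with medians of -0.14 to -0.01 and 0.0311 to 0.14, the last without library A of GCN2 KO Cold. GCN2 KO Cold vs WT RT gave 9 to 13 higher and 2 to 4 lower, with medians of 0.13 (without library A of WT RT) to 0.24 and -0.08 to 0.05. The calls kept in all 6 such fits were 11 of 15 in WT Cold vs WT RT and 10 of 16 in GCN2 KO Cold vs WT RT. The causes were not tested. With 3 libraries a group, small differences could not be told from the spread.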
